A study of Mus musculus with 18 samples.

Results

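The genes described here are the PDGF ligands and receptors: the ligand genes Pdgfa, Pdgfb, Pdgfc and Pdgfd and the receptor genes Pdgfra and Pdgfrb. They were chosen by name, as the entries of the deposited gene table with these 6 symbols, out of 55450 genes in that table. All 6 passed the filter on low counts, which kept 21161 genes for testing, although Pdgfd passed it with at most 15 counts in any library. The values are RNA sequencing measurements in mouse embryonic fibroblasts (MEF) that carried an empty plasmid or a plasmid for the microRNA miR-29b, with or without transforming growth factor beta (TGF-β).

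The study asked how a plasmid that makes miR-29b from a collagen promoter acts on fibroblasts under a fibrotic stimulus, next to a plasmid that makes it from a constitutive promoter. It used MEF from the American Type Culture Collection, grown in serum, and 18 libraries of poly(A) RNA in 6 groups of 3. Empty vector cells received pcDNA3 without an insert. Col1a1-miR-29b cells received a pcDNA3 plasmid in which a rat Col1a1 promoter drives EGFP followed by the human miR-29b-1 sequence, with mRFP1 under an SV40 promoter to mark transfected cells. CMV-miR-29b cells received the same plasmid with a CMV promoter in place of the Col1a1 promoter. The empty vector carries neither fluorescent protein, so the reporters and miR-29b cannot be told apart in a comparison with it. Plasmids were given at equal molar amounts, so the mass of DNA differed with plasmid size. In 3 groups TGF-β was added at 20 ng/ml from 6 h after transfection and RNA was taken 24 h later; the other 3 groups received none. The study states 3 repeated experiments for each group but does not tie a repeat to a library, so the p-values below measure the spread between these libraries and nothing wider. The replicates are called by the letters c, d and e of their sample titles. In both groups with the Col1a1-miR-29b plasmid, the third library bears a column letter found in no title and is called unlettered.

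Platelet-derived growth factors are secreted as disulfide-linked dimers of A, B, C or D chains, and they drive the growth and migration of fibroblasts, pericytes and vascular smooth muscle cells. They bind receptor tyrosine kinases built from alpha and beta chains: the alpha receptor binds A, B and C chains and the beta receptor binds B and D chains, after which adaptors and enzymes dock on the phosphorylated receptor. C and D chains are released as latent dimers that extracellular proteases activate. PDGF signaling is a long-studied driver of fibrosis, and miR-29 is known for lowering collagen and other matrix messages through matches between its seed, bases 2 to 8, and the 3′ UTRs of those messages.

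The sequence of miR-29b-3p is shown because the seed it carries is what both plasmids were built to deliver. It is taken from RefSeq (GRCm38.p6), where it occurs at chr1:195037091-195037113 on the plus strand in Mir29b-2 and at chr6:31063025-31063047 on the minus strand in Mir29b-1, with the same 23 bases in both, and capitals mark the seed. The plasmid's own sequence was not analysed here.
miR-29b-3p: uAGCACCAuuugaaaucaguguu

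Matches to this seed were counted in the longest annotated 3′ UTR of each gene (GENCODE M21, GRCm38). A match was TGGTGCT, the 7 bases opposite the seed, with or without a following A (an 8-mer or a 7-mer-m8), or GGTGCTA (a 7-mer-A1), read on the strand of the message only. Of the 6 PDGF genes, 5 had at least 1 such match, against 3368 of 21022 genes (16%). The PDGF genes have a median 3′ UTR length of 1570 bases against 960 over all genes searched, and the part of length in these shares was not tested. A match is a description of letters, not a measured site. Pdgfc holds an 8-mer, Pdgfa, Pdgfb and Pdgfrb hold 1 7-mer-m8 each, Pdgfra holds 2, and none of these letters occur in the 1942 bases of the Pdgfd 3′ UTR. The matches are shown with 10 bases on either side, 5′ to 3′ on the strand of the message, with the matching bases in capitals; that of Pdgfrb is given by its count only.
Pdgfa match at base 70 of 1203, chr5:138977131-138977157, minus strand: atactatgtaTGGTGCTtcattgccaa
Pdgfb match at base 128 of 1408, chr15:79997138-79997164, minus strand: ggacggccaaTGGTGCTtccctcaccc
Pdgfc match at base 922 of 1462, chr3:81213490-81213517, plus strand: cttccttgtaTGGTGCTAgagcttagcg
Pdgfra match at base 1265 of 3115, chr5:75196355-75196381, plus strand: gagaccacaaTGGTGCTgttgaatgaa
Pdgfra match at base 1426 of 3115, chr5:75196516-75196542, plus strand: atgaactgccTGGTGCTcttgaatagt

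Counts at the Mir29b-1 gene in these poly(A) libraries come from precursor transcripts and do not measure the mature microRNA. They were 0 in all 6 empty vector libraries, which allows up to 3 counts in each. They were 0, 1 and 1 in Col1a1-miR-29b cells and 4, 2 and 6 with TGF-β, at or close to that floor. In CMV-miR-29b cells they were 110, 115 and 309, and with TGF-β 214, 203 and 293, far above the other groups. Mir29b-2 had 0 or 1 count in every library.

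Total counts per library ran from 65898017 to 80332633, with a median of 74155860, and log2 counts of replicates correlated at 0.973 to 0.977. Low counts fell on multiples of 4 more often than chance gives: the share among counts of 1 to 40 was 33.8% to 36.7% per library against 25%. Where this excess comes from was not tested.

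The fibroblast label was checked against marker genes. Of 10 fibroblast markers, Col1a1 was the most abundant, with 53651 to 182026 counts per library, and Vim had 32733 to 55911. Decorin (Dcn) was low at 146 to 501 counts, Thy1 was above 3 counts in 4 of 18 libraries, and lumican (Lum) had 0 counts in all of them. The cells thus made collagen and vimentin but lacked lumican and nearly lacked Thy1. Of 9 mural markers, Mcam (6373 to 10458 counts), Notch3 (3138 to 5338) and Des (951 to 1630) were present beside Pdgfrb itself, Rgs5 had 10 to 53 counts, Cspg4 16 to 70, and Kcnj8 was at 0 throughout.

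Markers of other cell types were summed over their lists in empty vector cells without and with TGF-β. The 7 endothelial markers, led by Cdh5 and with Emcn at 0, summed to 147, 102 and 113 normalized counts in empty vector cells and to 244, 286 and 250 with TGF-β. The 6 epithelial markers, led by Krt14, summed to 83.9, 59.6 and 89.7 and to 128, 227 and 143. The neural or glial list, led by Tubb3 and with Olig1 and Olig2 at 0, summed to 3033, 2456 and 2485 and to 4382, 4252 and 4697. All 3 of these lists were higher in every library with TGF-β than in any without. The fibroblast list, which contains Pdgfra and is led by Col1a1, summed to 203377, 176313 and 181835 and, with TGF-β, to 409302, 349316 and 419212. Its members with the highest median counts were Col1a1 (103599), Col1a2 (64324.5), Vim (42465) and Col3a1 (15567). Col1a1 itself rose with TGF-β in empty vector cells, by 1.26 ± 0.08 (SE) on the log2 scale. The sum thus follows collagen messages in every comparison below and cannot be read as a share of cells. The mural list, which contains Pdgfrb and is led by Mcam, summed to 14124, 12914 and 13225 and to 15659, 17238 and 15498. The blood list, led by Cd68 (613 to 1004 counts), summed to 1239, 1256 and 1316 and, lower in every library, to 1115, 1203 and 1016 with TGF-β, while the defining leukocyte gene Ptprc had 0 to 25. In cells with the plasmids these sums also differed with TGF-β. The endothelial list summed to 152, 155 and 128 in Col1a1-miR-29b cells and to 248, 239 and 202 with TGF-β, and to 160, 191 and 125 in CMV-miR-29b cells and 216, 271 and 252 with TGF-β. The epithelial list summed to 104, 104 and 104 and to 164, 194 and 151 in the former, and to 19.9, 55.4 and 58.3 and to 228, 169 and 155 in the latter. The neural or glial list summed to 2733, 2673 and 2275 and to 3994, 4090 and 3827 in the former, and to 2645, 2991 and 2565 and to 4002, 3952 and 3987 in the latter. Each of these lists was again higher in every library with TGF-β. The fibroblast list summed to 157913, 158883 and 141738 and to 269327, 279078 and 274756 in Col1a1-miR-29b cells, and to 176200, 162783 and 157172 and to 282157, 314600 and 297673 in CMV-miR-29b cells. The mural list, at 14283, 14471 and 12977 and at 16556, 15782 and 15552 in the former and at 12888, 14217 and 12257 and at 15576, 15988 and 15555 in the latter, was also higher with TGF-β, while the libraries overlapped for the blood list. The part of any cell type in the PDGF results below was not tested, and in bulk RNA fewer cells with a message and less of it per cell cannot be told apart.

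Levels of the PDGF genes can be set side by side only per length, as FPKM, which the authors deposited and which is used here for 16 libraries (2 in each Col1a1-miR-29b group). Among ligands in empty vector cells, Pdgfa, the A chain, had 4.21 ± 0.238 FPKM (SD, n = 3), Pdgfb, the B chain, 2.69 ± 0.156, and Pdgfc, a protease-activated chain, 0.472 ± 0.159. Among receptors, Pdgfrb had 2.33 ± 0.303 FPKM and Pdgfra 0.833 ± 0.0615. Pdgfd, the other protease-activated chain, was near the floor at 0.0179 ± 0.0202 FPKM. The order was therefore Pdgfa, Pdgfb, Pdgfrb, Pdgfra, Pdgfc and Pdgfd, in which Pdgfb and Pdgfrb overlapped between libraries and the other neighbours did not.

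With TGF-β the order in empty vector cells changed. Pdgfb led with 10.1 ± 0.316 FPKM (SD, n = 3), followed by Pdgfa with 6.56 ± 0.401, Pdgfrb with 4.04 ± 0.584, Pdgfc with 2.90 ± 1.04 and Pdgfra with 1.08 ± 0.0779. Pdgfrb and Pdgfc overlapped between libraries here. Within a library the ratio of Pdgfb to Pdgfa FPKM was 0.637 to 0.642 without TGF-β and 1.43 to 1.71 with it, so the more abundant of these ligand messages passed from the A chain to the B chain. The ratio ran from 0.552 to 0.656 and from 2.01 to 2.11 in Col1a1-miR-29b cells without and with TGF-β (n = 2 each), and from 0.525 to 0.611 and from 1.73 to 1.98 in CMV-miR-29b cells (n = 3 each). The crossing was thus seen in all 3 vectors. The receptor message stayed mostly of the beta kind: the mean ratio of Pdgfrb to Pdgfra FPKM lay between 2.61 and 3.77 over the 6 groups.

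**Figure D1:**
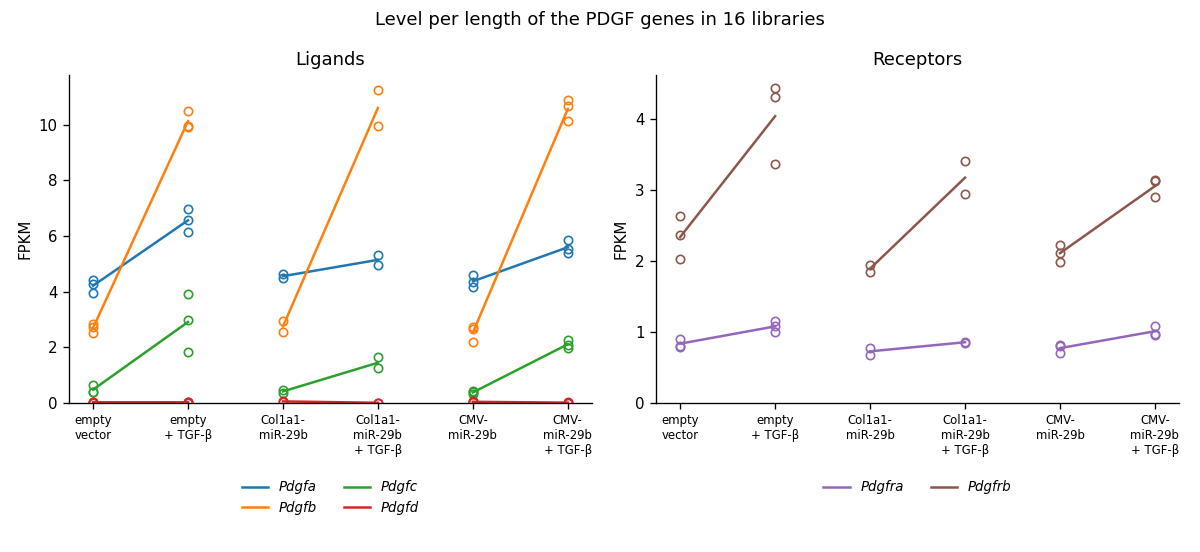
FPKM (vertical axis) of the ligand genes (left) and receptor genes (right) in the 6 groups (horizontal axis); circles are libraries, 16 in all, and lines join the means without and with TGF-β of a vector. The line of Pdgfb crosses that of Pdgfa in each vector, and Pdgfd lies at the base of the plot.

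In empty vector cells, the question was what TGF-β alone does to these genes. Of the 6 PDGF genes, 4 rose and 0 fell, against 5.88% of all genes tested that passed in either direction, 3.88% that rose and 2.01% that fell. Pdgfc rose 6.29-fold, Pdgfb 3.85-fold, Pdgfrb 1.77-fold and Pdgfa 1.60-fold. A gene passed at an adjusted p under 0.05 from edgeR. Genome-wide, 820 of the 1245 genes that passed were higher (65.9%), a share that was 53.1% (672 of 1265) with libraries scaled by total counts; the 4 PDGF genes were higher under each scaling tried, and no scaling moved the median of all genes by 0.1 on the log2 scale.

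Pdgfb (ENSMUSG00000000489, GRCm38 chr15:79995874-80014977) encodes the chain that binds both receptors. It had 1017, 1056 and 912 counts in replicates c, d and e of empty vector cells and 3401, 3827 and 3473 with TGF-β. Every library with TGF-β lay far above every library without it. Scaled to a common library size by TMM, as for all normalized counts here, the means were 934 ± 57.8 and 3595 ± 66.1 (SD, n = 3 each). This is a log2 fold change of 1.94 ± 0.09 (SE), with adjusted p = 2.2e-09 from edgeR.

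Pdgfc (ENSMUSG00000028019, GRCm38 chr3:81036416-81214040) had 301, 170 and 172 counts in empty vector cells and 1249, 816 and 1668 with TGF-β. The groups did not overlap, but replicates varied more than for Pdgfa and Pdgfb: replicate c stood above the others without TGF-β, and with TGF-β replicate e was far above replicate d. Normalized means were 201 ± 69.0 and 1266 ± 463 (SD, n = 3 each), a log2 fold change of 2.65 ± 0.27 (SE, adjusted p = 1.1e-05 from edgeR).

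Pdgfa (ENSMUSG00000025856, GRCm38 chr5:138976014-138997370), whose chain binds only the alpha receptor, had 1197, 1235 and 1070 counts in empty vector cells and 1689, 1683 and 1825 with TGF-β. All libraries with TGF-β lay above all without. Normalized means were 1095 ± 66.7 and 1750 ± 127 (SD, n = 3 each), and the log2 fold change was 0.68 ± 0.07 (SE, adjusted p = 1.3e-05 from edgeR).

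Pdgfd (ENSMUSG00000032006, GRCm38 chr9:6168584-6378845), a ligand of the beta receptor, had 12, 0 and 4 counts in empty vector cells and 0, 4 and 11 with TGF-β. Over all 18 libraries it never exceeded 15 counts. It had 15, 12 and 9 counts in Col1a1-miR-29b cells against 0, 0 and 4 with TGF-β, and 8, 8 and 14 in CMV-miR-29b cells against 0, 4 and 0 with TGF-β. These last groups did not overlap, but no comparison of Pdgfd passed the test, and the part of depth in this was not tested.

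Pdgfrb (ENSMUSG00000024620, GRCm38 chr18:61045150-61085061), the beta receptor, had 1293, 1157 and 959 counts in empty vector cells and 1939, 1616 and 2040 with TGF-β. The groups did not overlap. Normalized means were 1066 ± 145 and 1889 ± 295 (SD, n = 3 each), with a log2 fold change of 0.83 ± 0.12 (SE, adjusted p = 0.00036 from edgeR).

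Pdgfra (ENSMUSG00000029231, GRCm38 chr5:75152292-75198215), the alpha receptor, had 714, 722 and 787 counts in empty vector cells and 949, 955 and 841 with TGF-β. These groups did not overlap either, yet the log2 fold change of 0.41 ± 0.12 (SE) did not pass, with adjusted p = 0.065 from edgeR. It passed with DESeq2 (adjusted p = 0.021) and with 4 other alternatives, over a range of adjusted p from 0.021 to 0.23 across all settings and libraries left out. The call on Pdgfra therefore lies at the threshold.

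**Figure D2:**
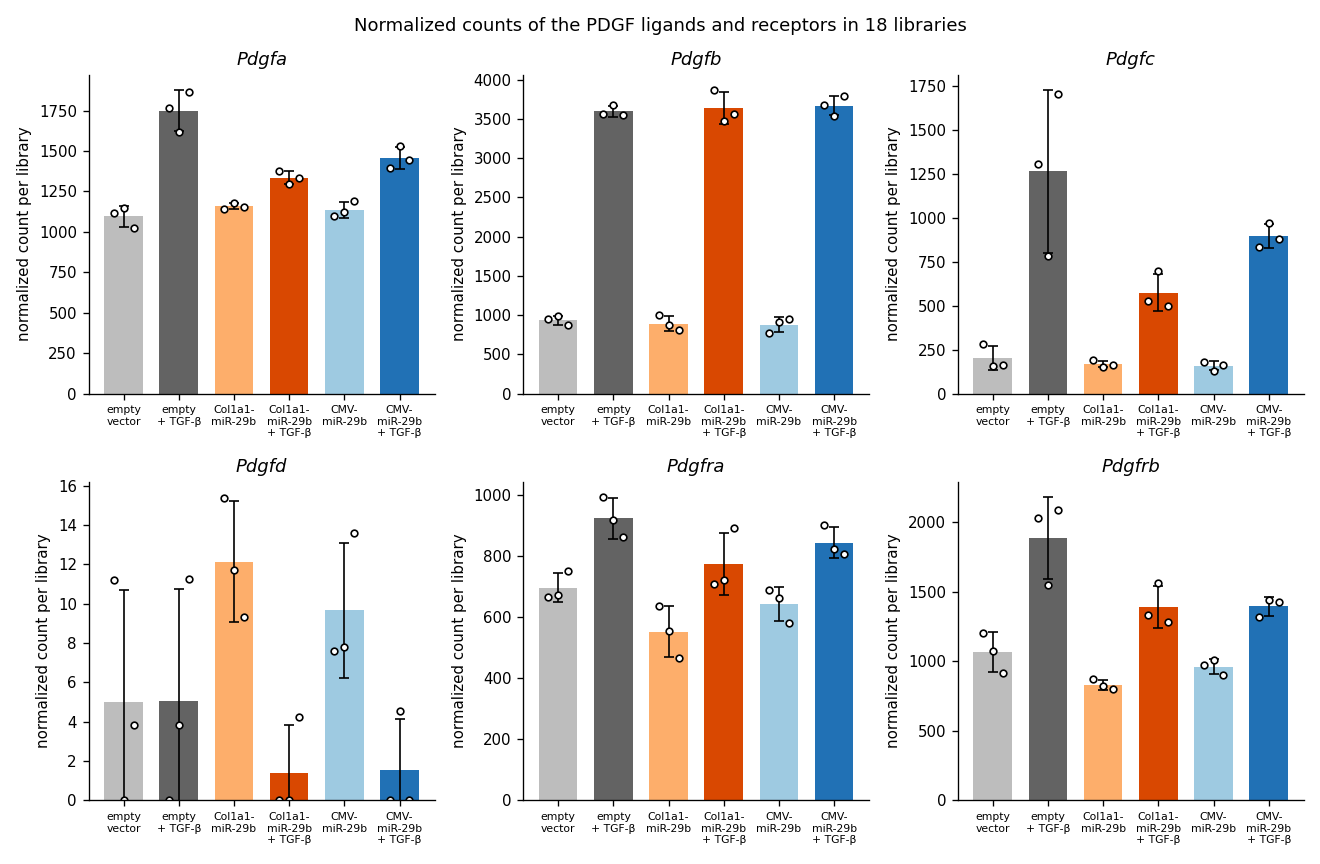
Normalized counts per library (vertical axis, linear and from 0) of each PDGF gene in the 6 groups (horizontal axis); bars are means, whiskers are 1 SD (n = 3 each) and circles are libraries. Pdgfb rises to a like level in all vectors with TGF-β, among groups with TGF-β the means of Pdgfa and Pdgfc are lowest in Col1a1-miR-29b cells, and Pdgfd stays under 16.

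In Col1a1-miR-29b cells, TGF-β raised 4 of the 6 PDGF genes and lowered 0, against 4.32% of all genes tested that passed, 3% that rose and 1.32% that fell. Here the 4 were Pdgfb, Pdgfc, Pdgfrb and Pdgfra. Pdgfb had 974, 888 and 782 counts in replicates c, d and the unlettered library, and 3833, 3425 and 3365 with TGF-β. Pdgfc had 185, 157 and 156, and 523, 686 and 473 with TGF-β. For both ligands the groups lay far apart. The log2 fold changes were 2.03 ± 0.09 for Pdgfb (SE, adjusted p = 1.8e-09 from edgeR) and 1.77 ± 0.27 for Pdgfc (SE, adjusted p = 0.00067). That of Pdgfc was 0.79 and did not pass with limma on log2(FPKM + 1) (adjusted p = 0.054, over a range of 2.0e-09 to 0.054). That fit had 2 libraries in each of these groups. Mean FPKM of Pdgfc was 0.409 without TGF-β and 1.44 with it, so adding 1 shrinks the log2 value.

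Pdgfa in Col1a1-miR-29b cells had 1114, 1205 and 1114 counts without TGF-β and 1362, 1279 and 1260 with it. The groups were separate but close. Its log2 fold change of 0.21 ± 0.07 (SE) did not pass, with adjusted p = 0.15 from edgeR.

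Pdgfrb in Col1a1-miR-29b cells had 848, 839 and 776 counts without TGF-β and 1321, 1539 and 1209 with it. Pdgfra had 620, 566 and 451, and 701, 711 and 842 with TGF-β. Both receptors were higher in every library with TGF-β, and the unlettered libraries held both the lowest and the highest count of Pdgfra. Pdgfrb had a log2 fold change of 0.74 ± 0.12 (SE, adjusted p = 0.0013 from edgeR) and Pdgfra had 0.49 ± 0.12 (SE, adjusted p = 0.033). The call on Pdgfra was lost when some single libraries were left out. Without replicate d its log2 fold change was no smaller, at 0.49 (adjusted p = 0.095) for the group without TGF-β and 0.54 (adjusted p = 0.053) for the group with it. Without the unlettered library of either group it fell to 0.37 (adjusted p = 0.18 for each). Adjusted p ranged from 0.0042 to 0.50 across all settings. Without both unlettered libraries its log2 fold change was 0.26, and it was also 0.26 with the replicate block, a fit that leaves out the same libraries.

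In CMV-miR-29b cells, TGF-β raised 4 of the 6 PDGF genes and lowered 0, against 4.95% of all genes tested that passed, 3.08% that rose and 1.87% that fell. They were Pdgfb, Pdgfc, Pdgfa and Pdgfrb, as in empty vector cells. Pdgfb had 807, 942 and 973 counts in replicates c, d and e, and 3620, 3102 and 3695 with TGF-β. Pdgfc had 192, 133 and 170, and 822, 850 and 859 with TGF-β, so its replicates with TGF-β were tighter here than in the other vectors. Pdgfa had 1153, 1155 and 1225, and 1373, 1342 and 1411 with TGF-β. The groups did not overlap for any of these ligands. The log2 fold changes were 2.07 ± 0.09 for Pdgfb (SE, adjusted p = 1.2e-09 from edgeR), 2.49 ± 0.27 for Pdgfc (SE, adjusted p = 2.4e-05) and 0.36 ± 0.07 for Pdgfa (SE, adjusted p = 0.0058). That of Pdgfa was also 0.36 with only the compared groups in the fit but did not pass there (adjusted p = 0.074, over a range of 6.1e-05 to 0.074).

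Pdgfrb in CMV-miR-29b cells had 1027, 1035 and 930 counts without TGF-β and 1296, 1262 and 1394 with it. Pdgfra had 724, 682 and 598, and 888, 721 and 787 with TGF-β. On normalized counts both receptors were higher in every library with TGF-β. The log2 fold change was 0.54 ± 0.12 for Pdgfrb (SE, adjusted p = 0.014 from edgeR) and 0.39 ± 0.12 for Pdgfra, which did not pass (SE, adjusted p = 0.091). For Pdgfrb the call was lost in some fits without 1 library, while the log2 fold change stayed about as large. It was 0.48 (adjusted p = 0.071) without replicate e of the group without TGF-β. For the group with TGF-β it was 0.51 without replicate d (adjusted p = 0.062) and 0.51 without replicate e (adjusted p = 0.053). Adjusted p ranged from 0.00077 to 0.071 across all settings. Pdgfra passed with DESeq2 (adjusted p = 0.033) and with 3 other alternatives, over a range of 0.032 to 0.29.

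**Figure D3:**
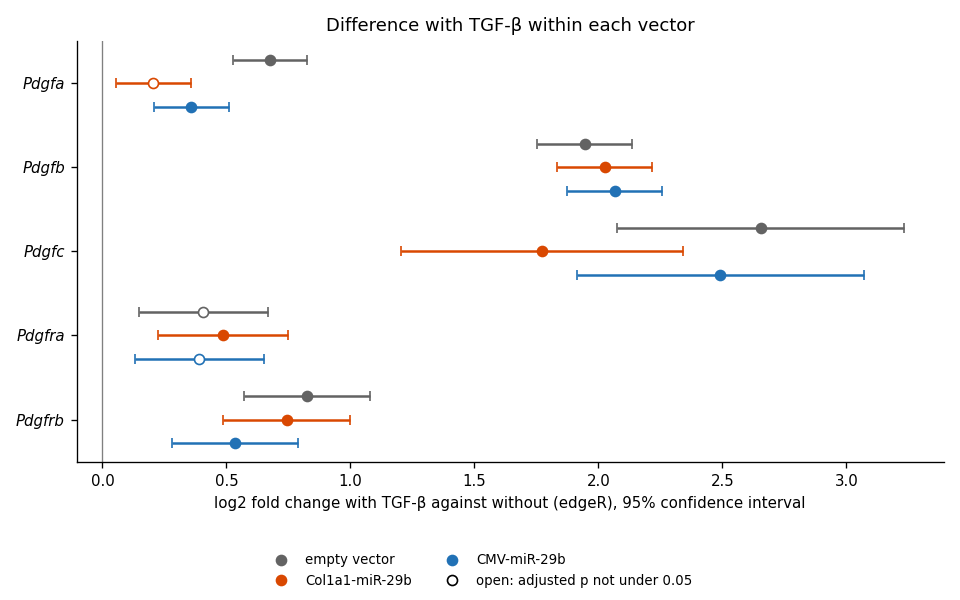
Log2 fold change with TGF-β (horizontal axis, edgeR, with 95% confidence intervals) of Pdgfa, Pdgfb, Pdgfc, Pdgfra and Pdgfrb in cells with each of the 3 vectors. Pdgfb lies near 2 in each vector, Pdgfc spans 1.77 to 2.65, and Pdgfa ranges from 0.21 in Col1a1-miR-29b cells to 0.68 in empty vector cells.

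Whether the response to TGF-β itself differed between vectors was tested as a difference of responses. None of the 6 PDGF genes passed for Col1a1-miR-29b against empty vector, where 0% of all genes passed in edgeR, 961 genes had an unadjusted p under 0.05, and DESeq2 called 27. None passed for CMV-miR-29b against empty vector either, where 0% of all genes passed in edgeR, 1129 had an unadjusted p under 0.05, and DESeq2 called 19. Both differences use the same empty vector libraries. A negative difference means a smaller response than in empty vector cells. For Pdgfa it was −0.47 ± 0.10 on the log2 scale in Col1a1-miR-29b cells (SE, unadjusted p = 0.00027, adjusted p = 0.66 from edgeR) and −0.32 ± 0.10 in CMV-miR-29b cells (adjusted p = 0.92). DESeq2 called the former (−0.46, adjusted p = 0.022), over a range of 0.022 to 1 across all settings. For Pdgfc the difference in Col1a1-miR-29b cells was −0.88 ± 0.37 (SE, unadjusted p = 0.030 from edgeR), which also did not pass. The presence of Pdgfa among the genes called in 2 vectors and its absence in the third is thus not shown to be a difference in response.

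Next, cells with the Col1a1-miR-29b plasmid were compared with empty vector cells without TGF-β. None of the 6 PDGF genes passed in edgeR, against 6.27% of all genes tested; 4560 genes had an unadjusted p under 0.05 and DESeq2 called 2346 genes. Of the 1327 genes that passed in edgeR, 543 were higher (40.9%), and 679 of 1322 (51.4%) were with libraries scaled by total counts. Normalized means of the ligands in empty vector and Col1a1-miR-29b cells were 1095 and 1158 for Pdgfa, 934 and 893 for Pdgfb, and 201 and 168 for Pdgfc, and the groups overlapped for each of them. Their log2 fold changes were 0.08, −0.06 and −0.26. That of Pdgfb changed sign with some alternatives, and that of Pdgfc was 0.05 without replicate c of empty vector cells.

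Of the receptors, Pdgfrb had normalized counts of 1205, 1077 and 915 in empty vector cells and of 870, 821 and 804 in Col1a1-miR-29b cells. Pdgfra had 665, 672 and 751 and, in Col1a1-miR-29b cells, 636, 554 and 467. Every Col1a1-miR-29b library lay below every empty vector library for both, by small margins. How many of all genes separated in this way was not counted. The log2 fold changes were −0.36 ± 0.12 for Pdgfrb (SE, adjusted p = 0.088 from edgeR) and −0.33 ± 0.12 for Pdgfra (SE, adjusted p = 0.12). Pdgfrb passed with DESeq2 (adjusted p = 0.032) and without replicate e of empty vector cells (−0.47, adjusted p = 0.042), over a range of 0.032 to 0.28. The fibroblast list, which contains Pdgfra, summed to 203377, 176313 and 181835 normalized counts in empty vector cells and to 157913, 158883 and 141738 in Col1a1-miR-29b cells, also lower in every library. The epithelial list was higher in every Col1a1-miR-29b library (104, 104 and 104) than in any empty vector library (83.9, 59.6 and 89.7). The part of either list was not tested.

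With TGF-β, the same comparison asks what the collagen-driven plasmid does under the stimulus it was built to answer. Of the 6 PDGF genes, 3 were lower and 0 higher in Col1a1-miR-29b cells: the ligands Pdgfc (0.454-fold) and Pdgfa (0.763-fold) and the receptor Pdgfrb (0.737-fold). The background was high, with 12.9% of all genes tested passing, 5.31% higher and 7.63% lower. Of the 2738 genes that passed, 1123 were higher (41%), and 1469 of 2792 (52.6%) were with libraries scaled by total counts; the 3 PDGF genes were lower under each scaling.

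Pdgfa had normalized counts of 1768, 1614 and 1867 in empty vector cells with TGF-β and of 1374, 1298 and 1335 in Col1a1-miR-29b cells with TGF-β. Pdgfc had 1308, 783 and 1706 and, with the plasmid, 528, 696 and 501. Both ligands were lower in every Col1a1-miR-29b library than in any empty vector library. The nearest libraries were at 1614 and 1374 for Pdgfa and at 783 and 696 for Pdgfc. The log2 fold change was −0.39 ± 0.07 for Pdgfa (SE, adjusted p = 0.0026 from edgeR) and −1.14 ± 0.26 for Pdgfc (SE, adjusted p = 0.0093). Pdgfa passed under every alternative tried and with each library left out (adjusted p from 3.7e-06 to 0.044). Pdgfc leaned on replicate e of empty vector cells with TGF-β, without which its log2 fold change was −0.86 (adjusted p = 0.064), and with the replicate block, a fit that also leaves out the unlettered libraries, it was −0.96 (adjusted p = 0.10). Without those libraries and with no block it was −1.05 (adjusted p = 0.055), and 2 other alternatives also lost the call, over a range of 0.00019 to 0.10.

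Pdgfb had normalized counts of 3561, 3671 and 3553 in empty vector cells with TGF-β and of 3868, 3475 and 3565 in Col1a1-miR-29b cells with TGF-β. The groups overlapped, and the log2 fold change was 0.02 ± 0.09 (SE, adjusted p = 0.94 from edgeR), with a 95% confidence interval of −0.17 to 0.20. The lower bound of that interval lies above the value measured for Pdgfa.

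Pdgfrb had normalized counts of 2030, 1550 and 2087 in empty vector cells with TGF-β and of 1333, 1561 and 1281 in Col1a1-miR-29b cells with TGF-β. Replicate d of the empty vector lay just under replicate d of the plasmid, so the groups overlapped. The log2 fold change was −0.44 ± 0.12 (SE, adjusted p = 0.023 from edgeR). This call was lost without replicate c (−0.39, adjusted p = 0.086) or replicate e (−0.36, adjusted p = 0.13) of the empty vector group, and without replicate c (−0.41, adjusted p = 0.090) or the unlettered library (−0.39, adjusted p = 0.086) of the Col1a1-miR-29b group, and with 6 of the other settings, over a range of 0.0034 to 0.15. Without replicate e of the empty vector group, 1 of the 6 PDGF genes passed in place of 3, and 1291 of all genes in place of 2738.

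Pdgfra had normalized counts of 994, 916 and 860 in empty vector cells with TGF-β and of 707, 721 and 892 in Col1a1-miR-29b cells with TGF-β. The unlettered library lay within the range of the empty vector libraries. Its log2 fold change of −0.26 ± 0.12 (SE) did not pass, with adjusted p = 0.20 from edgeR. In the same libraries the fibroblast list, which contains Pdgfra and is led by Col1a1, summed to 409302, 349316 and 419212 normalized counts with the empty vector and to 269327, 279078 and 274756 with the plasmid. Col1a1 itself was lower with the plasmid here, at −0.46 ± 0.08 (SE) on the log2 scale, so the lower sum does not measure a share of cells. The neural or glial list was likewise lower in every library with the plasmid (3994, 4090 and 3827) than in any with the empty vector (4382, 4252 and 4697). The part of either list in the PDGF values was not tested.

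**Figure D4:**
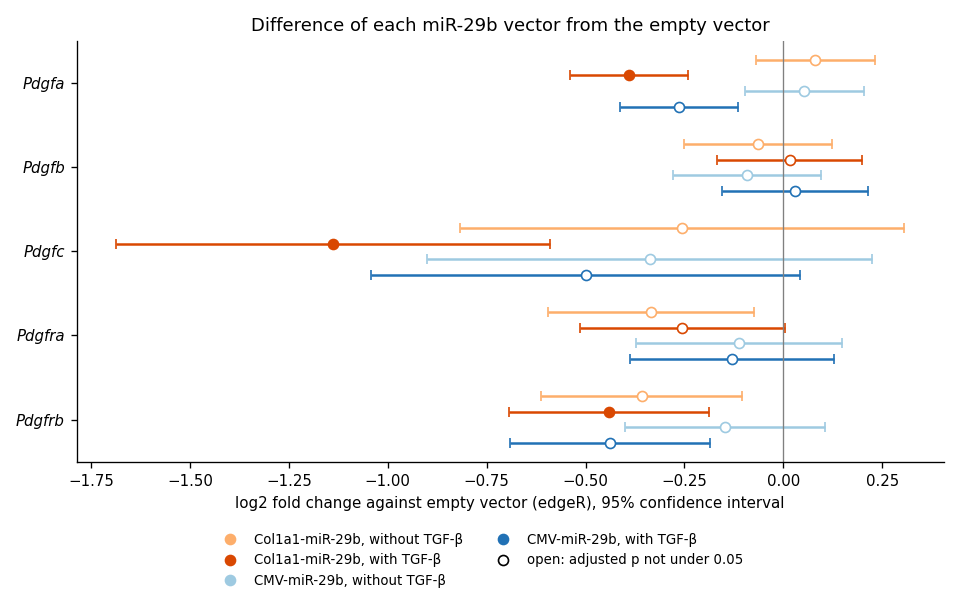
Log2 fold change (horizontal axis, edgeR, with 95% confidence intervals) of Pdgfa, Pdgfb, Pdgfc, Pdgfra and Pdgfrb in cells with each miR-29b plasmid against empty vector cells, without and with TGF-β; filled circles have an adjusted p under 0.05. Only Pdgfa, Pdgfc and Pdgfrb in Col1a1-miR-29b cells with TGF-β are filled, at −0.39, −1.14 and −0.44.

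The CMV-miR-29b plasmid, which gave the higher Mir29b-1 counts, was compared with the same empty vector libraries. Without TGF-β none of the 6 PDGF genes passed in edgeR, against 0.00473% of all genes tested, 1156 genes with an unadjusted p under 0.05 and 43 called by DESeq2. Normalized means in empty vector and CMV-miR-29b cells were 1095 and 1136 for Pdgfa, 934 and 876 for Pdgfb, 201 and 159 for Pdgfc, 696 and 644 for Pdgfra, and 1066 and 962 for Pdgfrb. The groups overlapped for all of these genes. The log2 fold changes ran from −0.34 for Pdgfc to 0.05 for Pdgfa. That of Pdgfc was −0.02 without replicate c of empty vector cells, and that of Pdgfa was 0.00 without replicate e of them. The fibroblast list summed to 176200, 162783 and 157172 in CMV-miR-29b cells, under each empty vector library (203377, 176313 and 181835), the nearest by a narrow margin. The epithelial list also lay lower, at 19.9, 55.4 and 58.3 against 83.9, 59.6 and 89.7, and the part of either was not tested.

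With TGF-β none of the 6 PDGF genes passed in edgeR, against 0.00945% of all genes tested, 2531 genes with an unadjusted p under 0.05 and 274 called by DESeq2. Pdgfa had normalized counts of 1395, 1531 and 1447 in CMV-miR-29b cells, below all 3 empty vector libraries with TGF-β, and a log2 fold change of −0.26 ± 0.07 (SE, adjusted p = 0.19 from edgeR). Pdgfrb had 1317, 1439 and 1429, also below all of them, and a log2 fold change of −0.44 ± 0.12 (SE, adjusted p = 0.19). The value of Pdgfrb is close to that with the Col1a1 promoter, where it passed against a background in which far more genes did. DESeq2 called both Pdgfa (adjusted p = 0.030, range 0.030 to 0.56) and Pdgfrb (adjusted p = 0.038, range 0.038 to 0.57), and edgeR called Pdgfrb without replicate d of empty vector cells with TGF-β (−0.57, adjusted p = 0.038), a fit in which 160 genes passed in place of 2. Pdgfc had 835, 969 and 881, within the range of the empty vector libraries (−0.50, adjusted p = 0.46). Its log2 fold change was −0.22 without replicate e and −0.76 without replicate d of empty vector cells with TGF-β. Pdgfb was at 0.03 and Pdgfra at −0.13 on the log2 scale. The fibroblast list was lower in every CMV-miR-29b library with TGF-β (282157, 314600 and 297673) than in any empty vector library with it (409302, 349316 and 419212). The neural or glial list was too, at 4002, 3952 and 3987 against 4382, 4252 and 4697. The part of either list was not tested.

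Set directly against each other, the 2 miR-29b plasmids differed in none of the PDGF genes by the test. Without TGF-β, 0 of 6 passed in edgeR against 1.81% of all genes tested, 3478 genes with an unadjusted p under 0.05 and 1198 called by DESeq2; of the 382 genes that passed, 212 were higher with the CMV promoter (55.5%), and 145 of 333 (43.5%) were with libraries scaled by total counts. With TGF-β, 0 of 6 passed in edgeR against 1.93% of all genes tested, 3305 with an unadjusted p under 0.05 and 1129 called by DESeq2. Pdgfc with TGF-β had 575 ± 106 normalized counts with the Col1a1 promoter and 895 ± 68.2 with the CMV promoter (SD, n = 3 each), and the groups did not overlap, yet adjusted p was 0.23 from edgeR. Pdgfa with TGF-β likewise did not overlap, at 1336 ± 38.4 and 1458 ± 68.2, with adjusted p = 0.43. Without TGF-β the groups did not overlap for Pdgfrb, at 870, 821 and 804 with the Col1a1 promoter and 975, 1007 and 904 with the CMV promoter (adjusted p = 0.42). The share of all genes whose groups did not overlap was not counted, so these separations are no evidence of a difference. Between the plasmids the epithelial list separated the libraries without TGF-β, higher with the Col1a1 promoter, and the fibroblast list those with TGF-β, higher with the CMV promoter. Their part was not tested.

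Promoter windows are shown for Pdgfc and Pdgfa because these ligands moved under both TGF-β and the Col1a1-miR-29b plasmid. They span 250 bases before to 50 after a start (RefSeq, GRCm38.p6), and capitals mark CAGAC and GGGCGG on either strand (GTCTG and CCGCCC on the other), the letters of a Smad-binding core and of a GC box. CAGAC occurs in 49.6% and GGGCGG in 35.7% of the 32851 windows in the table, and 2 more strings were searched: TGANTCA, an AP-1 core, in 7.81%, and TATAAA or TTTATA in 13.6%. The Pdgfc window holds CAGAC at 2 places and no GGGCGG; the 2 Pdgfa windows hold no CAGAC, and GGGCGG at 1 and 2 places. Neither TGANTCA nor TATAAA occurs in these 3 windows. Pdgfd has 2 CAGAC and 1 TATAAA in its window and Pdgfra 1 CAGAC; those of Pdgfb and Pdgfrb were not analysed here. These are letters in a window, not factor binding.
Pdgfc promoter, chr3:81036166-81036465, plus strand: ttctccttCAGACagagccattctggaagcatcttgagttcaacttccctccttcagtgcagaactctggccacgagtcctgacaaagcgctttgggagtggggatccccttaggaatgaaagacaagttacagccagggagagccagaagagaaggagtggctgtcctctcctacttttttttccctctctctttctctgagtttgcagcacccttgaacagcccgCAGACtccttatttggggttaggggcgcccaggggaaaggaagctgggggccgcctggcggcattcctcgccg
Pdgfa promoter at the upstream start, chr5:138994895-138995194, minus strand: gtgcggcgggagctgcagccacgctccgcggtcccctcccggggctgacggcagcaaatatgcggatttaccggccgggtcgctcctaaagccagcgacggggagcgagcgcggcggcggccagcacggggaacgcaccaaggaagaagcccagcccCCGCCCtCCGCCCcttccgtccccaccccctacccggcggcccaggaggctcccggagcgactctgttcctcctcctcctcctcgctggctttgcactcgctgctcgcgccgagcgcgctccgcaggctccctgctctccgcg
Pdgfa promoter at the downstream start, chr5:138994232-138994531, minus strand: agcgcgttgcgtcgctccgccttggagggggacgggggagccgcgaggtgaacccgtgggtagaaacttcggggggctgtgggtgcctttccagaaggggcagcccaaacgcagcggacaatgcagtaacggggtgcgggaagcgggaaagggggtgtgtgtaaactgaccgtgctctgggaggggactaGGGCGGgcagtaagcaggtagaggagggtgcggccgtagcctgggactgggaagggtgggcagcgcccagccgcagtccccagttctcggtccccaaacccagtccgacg

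Other genes of the PDGF pathway were read as lists, described by counts and by the median log2 fold change. With TGF-β in empty vector cells, 14 of 88 listed genes rose and 4 fell, where 3.88% of all genes tested rose and 2.01% fell; TGF-β control genes are not among the 88. Of 5 genes tested for ligand processing, 1 rose: Furin, a protease that cleaves PDGF precursors (0.63 ± 0.08, SE). Of 7 binding partners, 3 rose and 2 fell; Lrp1, a co-receptor of the beta receptor, rose by 0.79 ± 0.09, and Nrp1 fell by 0.45. The median of all genes was 0.00, against 0.36 for ligand processing and −0.11 for binding partners. These calls were few in each list, and no set was tested.

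The lists of intracellular genes were read in the same way. Of 23 receptor-bound adaptors and enzymes 1 rose under TGF-β with the empty vector, the Ras inhibitor Rasa1 (0.44 ± 0.09, SE). Of 16 downstream kinases 3 rose, among them Prkca (0.61 ± 0.10) and Map2k1 (0.36 ± 0.03). Of 14 negative regulators 2 rose, the phosphatase gene Ptpn12 (0.40 ± 0.07) and the ubiquitin ligase gene Cbl (0.16 ± 0.05). Of 11 early response genes 2 rose, Myc (0.45 ± 0.10) and Junb (0.39 ± 0.07). Medians of these 4 lists were 0.05, 0.06, 0.00 and 0.17, against 0.00 for all genes.

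Among 12 related growth factors and receptors, 2 rose and 2 fell with TGF-β in empty vector cells. Vegfc, a relative of the PDGF chains, rose by 2.08 ± 0.31 (SE) and Vegfa by 0.48 ± 0.06, while Kitl fell by 0.63 and Vegfd by 0.62. The size for Vegfc is close to that for Pdgfb. As a check of the treatment, 5 of 7 TGF-β control genes rose and 0 fell, with Ccn2 at 1.74 ± 0.10, Acta2 at 1.64 ± 0.14 and a list median of 1.05.

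The same lists with TGF-β gave 16 higher and 1 lower of 88 in Col1a1-miR-29b cells, beside 3% and 1.32% of all genes tested. In CMV-miR-29b cells 15 were higher and 4 lower, beside 3.08% and 1.87%. Furin (0.65 and 0.56), Lrp1 (0.65 and 0.65) and Vegfc (2.08 and 2.15) passed in both. Plau, a plasminogen activator known to activate the D chain, passed in both as well (0.54 and 0.55). The median of the ligand processing list was 0.54 in Col1a1-miR-29b cells but −0.02 in CMV-miR-29b cells. That of the binding partners was 0.04 and −0.12, and that of all genes −0.006 and −0.003.

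In Col1a1-miR-29b against empty vector cells with TGF-β, 13 of the 88 genes were higher and 17 lower, where 5.31% of all genes tested were higher and 7.63% lower. Of 11 early response genes, which are known to be induced within minutes of receptor activation, 6 were higher and 0 lower, with a median of 0.27 against 0.02 for all genes; Fosb was at 1.02 ± 0.16 (SE) and Fos at 0.60 ± 0.13. Of 23 adaptors and enzymes 1 was higher and 5 lower, with Fyn, a Src-family kinase, at −0.60 ± 0.11 and Pik3r1 at −0.32 ± 0.09. Of 16 downstream kinases 0 were higher and 4 lower, with Prkca at −0.50 ± 0.10. These are differences between groups at 24 h, not a reading of receptor activity.

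Of 14 negative regulators 3 were higher and 5 lower in that comparison, with Spry4 at 0.56 ± 0.15 (SE), Dusp6 at 0.36 ± 0.09 and Spred2 at −0.42 ± 0.09. Of 7 binding partners 1 was higher and 2 lower, with Lrp1 at −0.34 ± 0.09 and Nrp2 at −0.40 ± 0.10. Of 5 genes for ligand processing 2 were higher, Plau at 0.64 ± 0.12 and Plat, which activates the C chain, at 0.18 ± 0.05. Of 12 related growth factors and receptors 1 was lower, Vegfa at −0.25 ± 0.06, and of the TGF-β control genes Col1a1 was lower at −0.46 ± 0.08. Medians were −0.19 for negative regulators and −0.07 for kinases. No named value of the lists changed sign under the other scalings.

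Without TGF-β, 5 of the 88 genes were higher and 8 lower in Col1a1-miR-29b cells, where 6.27% of all genes tested passed in either direction, with Fosb (0.58 ± 0.15, SE), Junb (0.42 ± 0.07), Jun (0.37 ± 0.05), Plau (0.49 ± 0.12) and the scaffold gene Slc9a3r1 (0.27 ± 0.07) higher and Fyn the largest fall (−0.50 ± 0.11). In CMV-miR-29b against empty vector cells, 0 of 88 passed in edgeR with or without TGF-β, where 1 and 2 of all 21161 genes passed, 1156 and 2531 had an unadjusted p under 0.05, and DESeq2 called 43 and 274 genes.

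**Figure D5:**
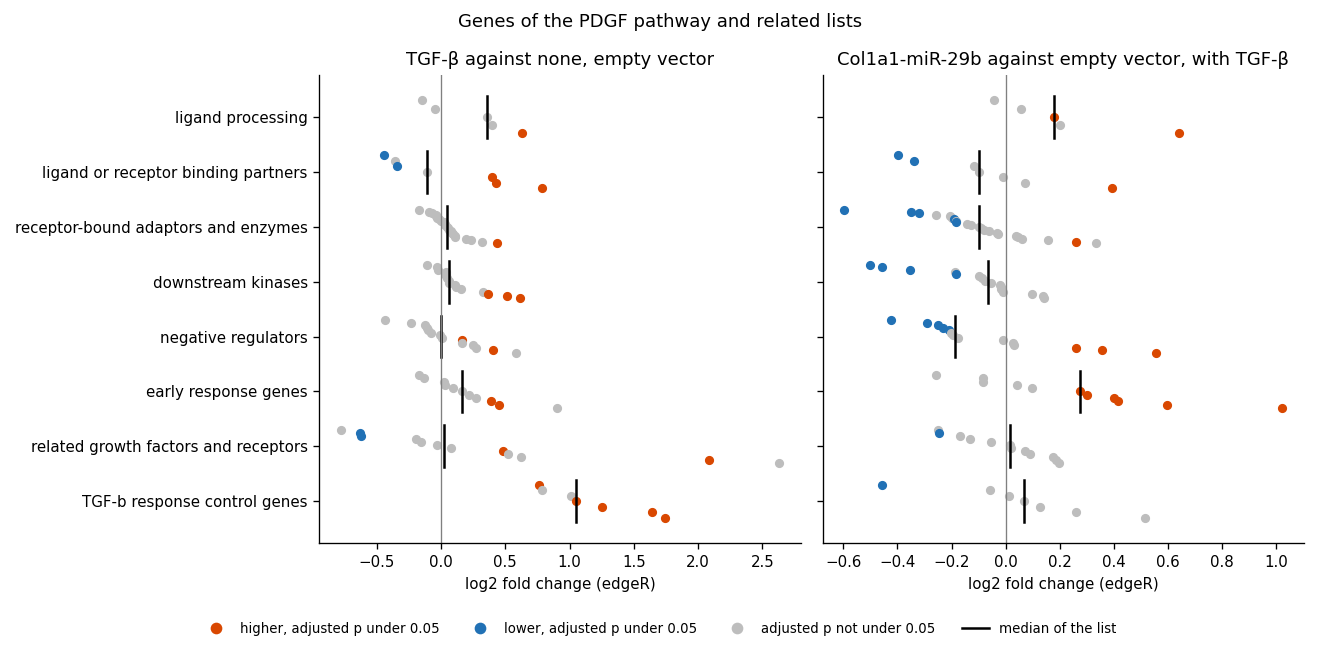
Log2 fold change (horizontal axis, edgeR) of every tested gene of the 8 lists (vertical axis), for TGF-β in empty vector cells (left) and for Col1a1-miR-29b against empty vector cells with TGF-β (right); red and blue points passed as higher or lower, grey points did not, and black lines are list medians. On the right the early response genes lie mostly to the right of 0, while every adaptor and kinase gene that passed, apart from Pik3r3 (0.26), lies to the left.

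The genes whose pattern was most like each PDGF gene were sought over 13911 genes (13912 for Pdgfd) and all 18 libraries, by Pearson's r of log2 CPM (counts scaled to a common total). The libraries fall into those with and without TGF-β, so these values describe likeness and carry no p. Pdgfb was most like Ccn4 (r = 0.993), Ltbp2 (0.992) and Itpkb (0.990), and Pdgfc was most like Ltbp1 (0.985), Ano1 (0.984) and Mical2 (0.982). For Pdgfa they were Adamts7 (0.944), Ankrd44 (0.941) and Nav1 (0.941). For the receptors they were Tes (0.970), Kdelr3 (0.968) and Rab31 (0.967) with Pdgfrb, and Rhou (0.909), Card10 (0.908) and Fam114a1 (0.908) with Pdgfra. The values of Pdgfd were lower, the highest being 0.775 for Pigg, followed by Sh3tc1 and Zan, and rest on counts of 0 to 15.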

How the data were processed

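Mouse embryonic fibroblasts were sequenced as 18 poly(A) RNA libraries in 6 groups of 3. The authors deposited, for each gene and library, a whole-number count without normalization. The authors also deposited an FPKM value, scaled for transcript length and library total, with 0.0001 in place of 0. Their notes name cutadapt, FastQC, HISAT2 and StringTie, without versions. The labels name mm9, but the gene coordinates in the table match GRCm38, which is used here.

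Sample titles were matched to column names. In both groups with the Col1a1-miR-29b plasmid the third column bears a letter that is in no title; its counts entered as a further library of that group, and its FPKM values, 2 columns in all, were not used. Total counts per library were 65898017 to 80332633, at which each PDGF gene other than Pdgfd had at least 133 counts in every library.

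Counts were analysed in R 4.3.3 with edgeR 4.0.16: filterByExpr, which kept 21161 genes, TMM scaling, a design of 6 group means, and two-sided quasi-likelihood F tests; p-values were adjusted over all genes tested by the Benjamini-Hochberg method, with a threshold of 0.05. There were 11 comparisons, of which 2 are differences of TGF-β responses. Standard errors were computed from the F statistic. With 3 libraries against 3, an exact permutation test could not go below 0.1 and was not used. The share of all genes whose groups did not overlap was not counted in any comparison, so overlap is given as a description only.

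The members and lists were chosen with earlier results of these data known. The genes named are the 6 members, at most 4 genes of each list with the largest changes past the threshold, and the 3 genes most like each member out of those whose CPM averaged 1 or more (prior count 2).

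Alternatives were DESeq2 1.42.0; edgeR scaled by the size factors of DESeq2 or by library totals; low-count filters set at 1 count in some library or at 10 in all of them; fits of the compared groups alone, with a replicate block (over lettered libraries only), or lacking each library in turn; counts divided by 4; and limma 3.58.1 on log2 FPKM with 1 or 0.1 added. Fits without the unlettered libraries, and offsets for transcript length and GC content, were added after the data were seen. All 21161 genes had a length and GC value. The steps were tested on simulated data, whose outcome is not reported here.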

Additional observations from a re-analysis of the deposited data

How the results depend on the processing

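Across the alternatives and the libraries left out in turn, the rises of Pdgfb with TGF-β in all 3 vectors, of Pdgfa, Pdgfc and Pdgfrb in empty vector cells, of Pdgfrb in Col1a1-miR-29b cells and of Pdgfc in CMV-miR-29b cells kept their direction and passed in each setting, as did the lower Pdgfa in Col1a1-miR-29b against empty vector cells with TGF-β. The count of PDGF genes called changed as follows, and the cause was not tested. For the TGF-β response of empty vector cells it was 5 in place of 4 with DESeq2, the replicate block, both limma settings and without the unlettered libraries. For the TGF-β response of Col1a1-miR-29b cells it was 2 in place of 4 with limma on log2(FPKM + 1), and 3 with limma on log2(FPKM + 0.1), the filter of 1 count, only the compared groups, the replicate block and without the unlettered libraries. In CMV-miR-29b cells it was 5 in place of 4 with DESeq2, both limma settings and without the unlettered libraries, and 3 with only the compared groups. For Col1a1-miR-29b against empty vector cells with TGF-β it was 1 in place of 3 with only the compared groups in the fit, with the replicate block, with limma on log2(FPKM + 0.1) and without the unlettered libraries, and 2 with limma on log2(FPKM + 1) and with the offsets. DESeq2 called 1 in place of 0 without TGF-β in that comparison, 2 in place of 0 for CMV-miR-29b against empty vector cells with TGF-β, and 1 in place of 0 for the difference of responses in Col1a1-miR-29b cells.

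With 1 library left out, the count ran from 3 to 4 for TGF-β in Col1a1-miR-29b and in CMV-miR-29b cells and stayed at 4 in empty vector cells. It ran from 0 to 1 for Col1a1-miR-29b against empty vector cells without TGF-β, from 1 to 3 with TGF-β, and from 0 to 1 for CMV-miR-29b against empty vector cells with TGF-β. It stayed at 0 in the other comparisons. A group left with 2 libraries was assumed to vary like the others.

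Values near 0 that did not pass were followed only where the text gives them, a choice made after many of them were seen to change sign. The log2 fold change of Pdgfb in Col1a1-miR-29b against empty vector cells without TGF-β was −0.06, and 0.00201 with the replicate block, 0.0194 with limma on log2(FPKM + 1) and 0.0252 on log2(FPKM + 0.1). With TGF-β it was 0.02, and −0.0288 with the offsets, with −0.0313 to 0.0428 when 1 library was left out, including −0.000164 without replicate c of the empty vector. Pdgfc without TGF-β ran from −0.412 to 0.0532 with 1 library left out. For CMV-miR-29b against empty vector cells without TGF-β, Pdgfa ran from −0.000362 to 0.0846 with 1 library left out. The difference of Pdgfc responses for CMV-miR-29b was −0.16 and ran from −0.466 to 0.12 with 1 library left out. Seed matches were found in 5 of 6 PDGF genes also when 6-mers were counted, beside 28.3% of all genes.

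The replicate block takes libraries of a letter as paired and leaves out the unlettered libraries, so it changes both choices at once. For pairs of libraries that share a letter, 36 in all, deviations from group means correlated at 0.00635 on average (−0.0716 to 0.0966). For the 70 pairs that do not, they correlated at −0.0031 (−0.130 to 0.145). No pairing by letter was thus seen on average over 13912 genes. A shared repeat that acts on only some genes could be missed by such an average and was not tested. With the block 5, 3 and 4 PDGF genes passed for TGF-β in empty vector, Col1a1-miR-29b and CMV-miR-29b cells.

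Counts over all genes moved more. For TGF-β in empty vector, Col1a1-miR-29b and CMV-miR-29b cells they were 1245, 914 and 1047, with lowest and highest alternatives of 618 and 1759, 394 and 1313, and 527 and 1496. For Col1a1-miR-29b against empty vector cells they were 1327 (76 to 2346) without TGF-β, and 2738 (982 to 3519) with TGF-β. Under the block they were 161 and 1152, and without the unlettered libraries but with no block 397 and 1659. For CMV-miR-29b against empty vector cells they were 1 (0 to 43) and 2 (1 to 274), for CMV-miR-29b against Col1a1-miR-29b cells 382 (18 to 1198) and 408 (10 to 1129), and for the differences of responses 0 (0 to 27) and 0 (0 to 19). The highest came from DESeq2 in each case, and the cause was not tested. With 1 library left out they ran, in the same order, from 725 to 1428, 630 to 679, 724 to 876, 468 to 1043, 1291 to 3182, 1 to 5, 3 to 160, 61 to 428, 40 to 137, 0 to 3 and 0 to 2. With counts divided by 4 the number of PDGF genes called was the same in every comparison. Pdgfd, at 0 to 15 counts, was called in no comparison of the main fit, and the part of depth in this was not tested.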
